A study of Mus musculus with 16 samples.

Results

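A set of 9 genes that mark mural cells, the cells wrapped around blood vessels, were followed in mouse tail tendon fascicles, the thin collagen strands pulled from the tail. The 5 pericyte markers are Rgs5, Kcnj8, Abcc9, Cspg4 and Mcam, and the 4 smooth muscle markers are Acta2, Myh11, Tagln and Cnn1. They were found by symbol among the 25719 genes listed in the count files, and all 9 were present. RNA was sequenced from 8 wild type libraries and 8 knockout libraries, whose genotype the series gives as ScxCre;Vhlf/f. In these mice Cre recombinase, driven by the tendon gene Scx, deletes floxed Vhl, which encodes the protein that marks hydroxylated HIF1α for degradation. By its title, the study is about HIF1α in the response of tendon to overload, with or without vessels. Age, sex and strain are not given in the sources used here, nor whether wild type mice carried Cre or a floxed allele. Every library holds RNA of all cells of the fascicle.

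Pericytes sit on capillaries and stabilise the endothelial tube, while smooth muscle cells form the contractile coat of arterioles and larger vessels. Endothelial cells attract both through platelet-derived growth factor, and contact between the cell types through Notch receptors keeps the coat in place. The contractile genes of smooth muscle are switched on by serum response factor and its partner myocardin, which bind the CArG box, a short element in their promoters.

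Levels are given in CPM, a count divided by the library size and brought to the usual common total, with library sizes scaled by the trimmed mean of M-values. Differences were tested with edgeR's quasi-likelihood test over 14803 genes with Benjamini-Hochberg adjustment at a threshold of 0.05. Knockout libraries held 10488355 to 18753254 counts and wild type libraries 10792900 to 16379401. Vhl followed the labels, with 7.51 to 10.9 CPM in the knockout and 14.1 to 25.8 CPM in the wild type. Skeletal muscle transcripts set 3 libraries apart: the summed level of 16 skeletal muscle markers was 17937 to 25938 CPM in knockout libraries 6, 7 and 8 and 433 to 4118 CPM in the other 5 knockout libraries. It was 104 to 11337 CPM in the wild type, with the highest level in library 5.

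Of the 9 markers, 7 passed the filter on low counts and 5 of these were higher in the knockout (Rgs5, Abcc9, Mcam, Myh11 and Tagln), where 25.6% of all tested genes were higher. Of the 7, only Cspg4 was lower, where 22.7% of all tested genes were lower. Acta2 did not pass the threshold. Kcnj8 and Cnn1 had too few counts to enter the test. Rgs5, Kcnj8, Mcam and Tagln were higher in every knockout library than in any wild type library, a pattern seen in 10.8% of tested genes. The wild type medians of Rgs5, Abcc9 and Mcam were under 1 CPM, so these genes passed the filter through the knockout libraries, and the count of 5 is a description. In bulk tissue, more mural cells and more RNA per mural cell cannot be told apart.

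**Figure D1:**
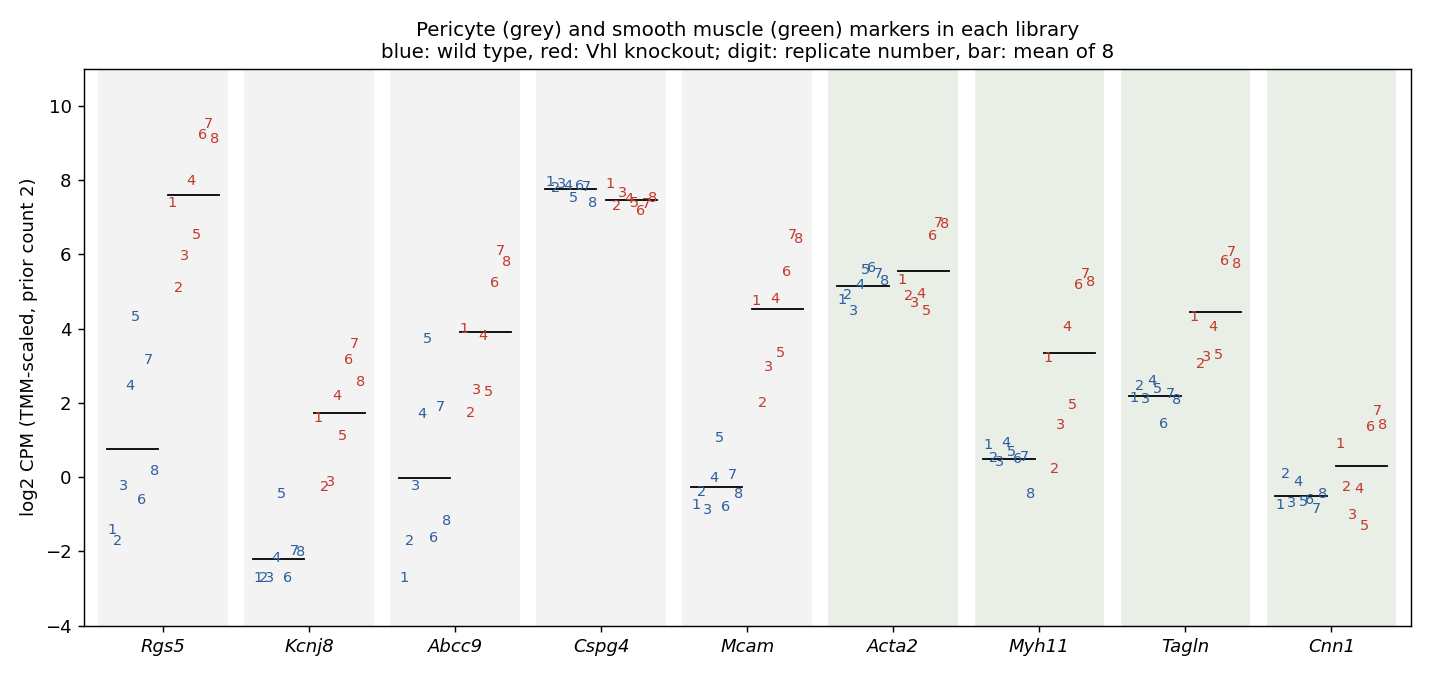
Log2 CPM (prior count 2) of each of the 9 markers in each library, with a digit for the replicate number (blue wild type, red knockout) and a bar at the mean of 8 libraries. Rgs5, Kcnj8, Mcam and Tagln show no overlap between the genotypes, while the ranges of Cspg4 and Acta2 overlap.

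Rgs5 (ENSMUSG00000026678, chromosome 1) encodes a regulator of G protein signalling that shortens signalling of contractile receptors and is among the most used pericyte markers. Its level in the knockout was 34.2 CPM at the lowest, 206 CPM at the median and 724 CPM at the highest. In the wild type the corresponding levels were 0.151, 0.834 and 19.6 CPM. Every knockout library lay above every wild type library, and the 3 highest were libraries 6, 7 and 8 with 595, 724 and 544 CPM. The log2 fold change was 6.11 (SE 1.01, adjusted p = 1.49e-04). Without libraries 6, 7 and 8 it was 4.75 (adjusted p = 0.00102).

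The promoters of Rgs5, which had the largest difference, and of Acta2, the one tested marker that did not pass the threshold, are shown for contrast. Each run is the 250 bases before the annotated start, from RefSeq on GRCm38.p6, read 5′ to 3′ on the gene's strand. Capitals mark matches to the CArG box that carry 1 substitution in its A and T core. Rgs5 lies at chr1:169655251-169655500 on the plus strand and Acta2 at chr19:34255374-34255623 on the minus strand.
Rgs5: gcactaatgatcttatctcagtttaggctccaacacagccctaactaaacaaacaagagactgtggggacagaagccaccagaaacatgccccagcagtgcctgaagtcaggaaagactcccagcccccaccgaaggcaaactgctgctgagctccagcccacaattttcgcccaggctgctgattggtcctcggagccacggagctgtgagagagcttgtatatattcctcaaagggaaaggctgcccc
Acta2: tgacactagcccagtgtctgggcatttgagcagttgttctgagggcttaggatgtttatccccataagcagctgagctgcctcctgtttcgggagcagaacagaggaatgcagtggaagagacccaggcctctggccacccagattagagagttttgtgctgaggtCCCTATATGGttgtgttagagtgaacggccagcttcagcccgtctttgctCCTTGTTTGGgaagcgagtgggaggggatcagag

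The Acta2 window holds CCCTATATGG from 84 to 75 bases upstream of the start and CCTTGTTTGG from 34 to 25 bases upstream. Among 32817 promoter windows of this length, 7.25% held such a match with 1 substitution and 1.47% an exact CArG box. The 5 motifs searched, on both strands, were the exact CArG box, the box with 1 substitution, the MEF2 site, TATAAA, and the core of the hypoxia response element (ACGTG or GCGTG). The Rgs5 window held none of them. Promoters of 7 of the 9 markers were in the table, without Myh11 and Tagln. The core of the hypoxia response element was found in 2 of the 7, in Kcnj8 from 221 to 217 and in Cnn1 from 71 to 67 bases upstream, both on the opposite strand, and in 38.6% of all windows. A match is only a description of the letters.

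Kcnj8 and Abcc9 encode the pore (Kir6.1) and the regulatory subunit (SUR2) of the ATP-sensitive potassium channel of vascular mural cells. Kcnj8 (ENSMUSG00000030247, chromosome 6) was low, with 0.68, 3.63 and 11.8 CPM at the lowest, median and highest knockout library. In the wild type 7 of 8 libraries held at most 3 counts, and the highest, library 5, held 6 counts or 0.576 CPM. The groups did not overlap. When no filter on low counts was applied, the log2 fold change was 5.44 (SE 0.842, edgeR adjusted p = 8.02e-05), a value that depends on the prior count because most wild type libraries were at the floor of 3 counts.

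Abcc9 (ENSMUSG00000030249, chromosome 6) was at 3.15, 14.7 and 67.8 CPM at the lowest, median and highest knockout library and at 0, 0.496 and 13 CPM in the wild type. The groups overlapped: wild type library 5, with the highest skeletal muscle and endothelial levels of its group, lay above knockout libraries 2, 3 and 5. The log2 fold change was 3.30 (SE 0.933, adjusted p = 0.00892). Without knockout libraries 6, 7 and 8 the call was lost, at 1.70 (adjusted p = 0.168). With the muscle level as a covariate it was 1.97 (adjusted p = 1.27e-04). Abcc9 shares 158 exon bases with an antisense gene, and the use of strand in counting is not given, so its counts are uncertain to that extent. Of the 4 channel subunit genes, the 2 tested were both higher: Abcc9, and Kcnj11, which encodes the muscle and endocrine pore, by 2.62 on the log2 scale (adjusted p = 0.0426). Kcnj11 was at 0.34 without knockout libraries 6, 7 and 8 (adjusted p = 0.807).

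Mcam (ENSMUSG00000032135, chromosome 9) encodes CD146, an adhesion molecule of pericytes and also of endothelial and smooth muscle cells. It was measured at 3.83, 27 and 92.2 CPM at the lowest, median and highest knockout library, against 0.39, 0.592 and 1.92 CPM in the wild type. All knockout libraries lay above all wild type libraries. The log2 fold change of 5.61 (SE 0.771, adjusted p = 2.34e-05) passed the threshold in all 28 alternative fits run, between 2.30 and 5.94.

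Cspg4 (ENSMUSG00000032911, chromosome 9) encodes the NG2 proteoglycan, a pericyte surface protein also made by some mesenchymal and glial progenitors. It was measured at 144, 173 and 239 CPM at the lowest, median and highest knockout library and 166, 226 and 247 CPM in the wild type. The ranges overlapped, with 4 knockout libraries below the lowest wild type library. Cspg4 was the only marker called lower, by -0.27 on the log2 scale (SE 0.102, adjusted p = 0.0319). The call was lost when any 1 of knockout libraries 2, 5, 6 and 7 or wild type libraries 1, 3, 4 and 6 was left out (adjusted p up to 0.065), and the value was 0.03 when libraries were scaled to total counts (adjusted p = 0.829).

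Acta2 (ENSMUSG00000035783, chromosome 19) encodes smooth muscle α-actin, which myofibroblasts also make. In the knockout it was at 22 CPM at the lowest, 35 CPM at the median and 115 CPM at the highest library. In the wild type the corresponding levels were 22.2, 37.3 and 49.2 CPM. Knockout libraries 6, 7 and 8 (90.1, 115 and 112 CPM) lay above every wild type library, and the other 5 lay between 22 and 39.7 CPM, among or just below the wild type. Acta2 differed by 0.66 on the log2 scale (SE 0.38, adjusted p = 0.168). Without those 3 libraries it was -0.33 (adjusted p = 0.184), and with total counts as the scale it was 0.98 (adjusted p = 0.0366). The sign of the Acta2 difference thus changed without the 3 libraries that held the most skeletal muscle and endothelial RNA, though neither value passed the threshold.

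Myh11 (ENSMUSG00000018830, chromosome 16) encodes the smooth muscle myosin heavy chain and is the most restricted of the 4 smooth muscle markers. The knockout levels were 1.02, 12.6 and 44.1 CPM at the lowest, median and highest library, and the wild type levels were 0.579, 1.29 and 1.74 CPM. In Myh11, 7 of 8 knockout libraries lay above the wild type, and knockout library 2, at 1.02 CPM, lay within it. Its log2 fold change was 3.83 (SE 0.737, adjusted p = 5.10e-04), and 2.29 without knockout libraries 6, 7 and 8 (adjusted p = 0.00207).

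Tagln (ENSMUSG00000032085, chromosome 9) encodes transgelin, an actin-binding protein that is an early smooth muscle marker. It was at 8.08, 17.9 and 66 CPM at the lowest, median and highest knockout library and at 2.53, 4.42 and 5.86 CPM in the wild type, with no overlap. On the log2 scale Tagln was higher by 2.74 (SE 0.499, adjusted p = 3.13e-04), and 1.47 without knockout libraries 6, 7 and 8 (adjusted p = 3.83e-05). Its exons share 108 bases with those of Pcsk7, which was also counted. Of the 1988 exon bases of Tagln, 1241 are shared with an antisense gene that was not counted. The use of strand in counting is not given, so Tagln counts are uncertain to that extent. Cnn1 (ENSMUSG00000001349, chromosome 9), which encodes calponin, a thin filament protein, was low, with 4 to 12 counts per wild type library and 4 to 68 per knockout library. It reached 0.247, 1.19 and 3.3 CPM in the knockout and 0.398, 0.493 and 0.908 CPM in the wild type. Cnn1 lay above the wild type range in 4 knockout libraries and below it in 2, and the fit with no filter on low counts gave 1.35 (SE 0.46, edgeR adjusted p = 0.0256).

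**Figure D2:**
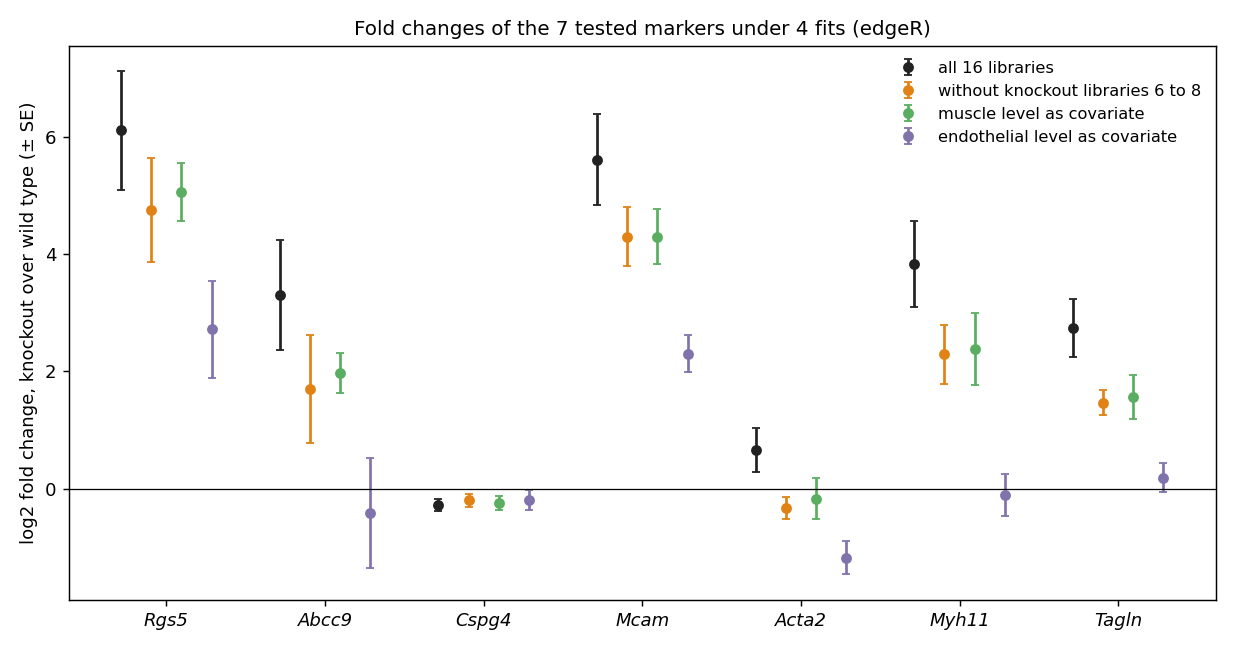
Log2 fold change of knockout over wild type with its standard error for the 7 tested markers in 4 fits: all 16 libraries, without knockout libraries 6, 7 and 8, and with the muscle or the endothelial level as a covariate. Rgs5 and Mcam lie above 0 in each of them, while Acta2 lies at 0.66 over all libraries and at -0.33 without knockout libraries 6, 7 and 8.

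Set side by side, the pericyte markers had the larger median fold change, a difference that was not tested. Gene by gene the subtypes were mixed. Rgs5 (6.11) and Mcam (5.61) lay above the smooth muscle markers, while Abcc9 (3.30) lay below Myh11 (3.83), and Cspg4 (-0.27) lay below all. The median log2 fold change was 4.46 for the 4 tested pericyte markers and 2.74 for the 3 tested smooth muscle markers, against 0.02 for all tested genes. These medians rest on few genes and are descriptions. Per kilobase of exon, the median wild type levels were highest for Cspg4 and Acta2, at 18.9 and 17 CPM per kb, whose ranges overlapped. Tagln followed at 2.22 CPM per kb, below every Acta2 library, and the other 6 lay between 0.0137 and 0.183 CPM per kb. In the knockout Rgs5 came first, at 45.4 CPM per kb, ahead of Acta2 (15.9), Cspg4 (14.5), Tagln (8.99) and Mcam (8.06). Abcc9, Myh11, Kcnj8 and Cnn1 lay at 0.435 to 1.75 CPM per kb. Each gene of these orders overlapped its neighbour in range, apart from Acta2 and Tagln in the wild type. Cspg4 and Acta2, the most abundant per kb in the wild type, were the 2 of 7 tested markers that were not called higher.

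To set the subtypes against each other in each library, the mean log2 CPM per kb of the smooth muscle markers was subtracted from that of the pericyte markers. The difference was 0.44 to 1.33 in the knockout (median 0.87) and -2.51 to 0.48 in the wild type (median -1.58). Wild type library 5, at 0.48, lay above knockout library 2, at 0.44, so the groups overlapped at that one pair. The smooth muscle mean varied little in the wild type, from -0.05 to 0.52, and from 0.34 to 3.41 in the knockout.

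**Figure D3:**
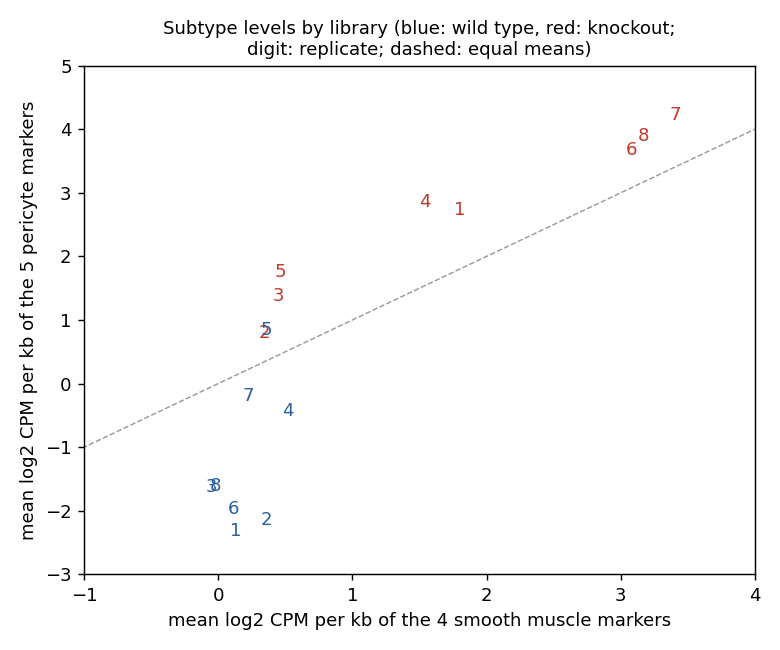
Mean log2 CPM per kb of the 5 pericyte markers against that of the 4 smooth muscle markers, 1 digit per library (its replicate number; blue wild type, red knockout; the dashed line marks equal means). The wild type libraries spread along the pericyte axis from -2.32 to 0.84, while the knockout libraries lie above the line from 0.79 to 4.22.

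Further genes of both cell types were read from lists. Of 16 further pericyte genes, 12 were tested, of which 9 were higher, none was lower and 3 did not pass, with a median log2 fold change of 0.99, beside 25.6% of all tested genes higher and 22.7% lower. Without knockout libraries 6, 7 and 8, 8 were higher and 1 was lower, with a median of 0.53, where 21.6% of all tested genes were higher and 20.3% lower. The lower gene was then Pdgfrb (-0.45, adjusted p = 0.0134). With the endothelial level as a covariate 8 were higher and 2 lower, with a median of 0.47, where 17.6% of all tested genes were higher and 14.6% lower. The largest differences were those of Cox4i2, a cytochrome oxidase subunit that is also a known HIF target (4.80, adjusted p = 1.38e-12), and Notch3, the Notch receptor of mural cells (4.22, adjusted p = 2.79e-05). The smallest were those of Pdgfrb, the receptor through which pericytes are recruited (-0.20, adjusted p = 0.279), and Steap4, a metalloreductase (0.29, adjusted p = 0.285). Foxs1, a forkhead factor of pericytes, was at 0 to 4 counts in the wild type and at 10 to 58 in the knockout. Higd1b and Foxf2 were not tested, with no more than 3 counts in every wild type library. Pdgfrb was at 87.3 to 187 CPM in the knockout and 119.7 to 191 CPM in the wild type, ranges that overlapped, and Pdgfrb is also made by fibroblasts. Ndufa4l2, named in addition to the rule as the most abundant gene of the list, had a mean of 503 against 194 CPM (1.38, adjusted p = 7.95e-09). Without knockout libraries 6, 7 and 8, Cox4i2 was at 4.93 and Ndufa4l2 at 1.49. How far the genes of this list reflect pericytes in this tissue was not tested, so its counts are descriptions.

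Of 17 further contractile genes of smooth muscle, 13 were tested: 4 were higher, 2 were lower and 7 did not pass, with a median of 0.74. These counts are near the 25.6% and 22.7% of all tested genes and are no result about the list. Sncg, which encodes γ-synuclein (3.56, adjusted p = 3.32e-04), and Des, the intermediate filament desmin (3.34, adjusted p = 0.0376), were the largest. Des is also a skeletal muscle gene, and without knockout libraries 6, 7 and 8 it was at 0.74 (adjusted p = 0.639). Mylk, the kinase of myosin light chain, was lower by a log2 fold change of -2.24 (adjusted p = 2.68e-09), at 87.9 to 217 CPM in the knockout and 530.0 to 1082 CPM in the wild type. Ramp1, a receptor subunit for calcitonin gene-related peptide, was lower as well (-1.82, adjusted p = 5.19e-07). Actg2, the enteric smooth muscle actin, was not tested, with no more than 3 counts in every wild type library. The median of the list was 0.07 without knockout libraries 6, 7 and 8 and -0.04 with the muscle level as a covariate.

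Of 8 transcription factors of mural cells, 7 were tested, of which 4 were higher, where 25.6% of all tested genes were, and 3 did not pass. With the endothelial level as a covariate 2 were higher, where 17.6% of all tested genes were. Gata6, a zinc finger factor of vascular smooth muscle, was at 1.03 to 2.91 CPM in the knockout and at no more than 1 count per library in the wild type (fitted log2 fold change 5.13, adjusted p = 5.00e-09, a value that depends on the prior count). Foxc1, a forkhead factor, was higher by 1.46 (adjusted p = 1.11e-09). Mrtfa and Klf4, a coactivator of serum response factor and a factor of dedifferentiated smooth muscle, were at 0.10 and 0.14 (adjusted p = 0.364 and 0.306). Myocd, which encodes myocardin, was not tested, with 1 to 51 counts per library in the knockout and 0 or 1 in the wild type.

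Of 17 genes of mural recruitment, 16 were tested: 9 were higher, 1 was lower and 6 did not pass, with a median of 0.77, beside the same 25.6% and 22.7%. Without knockout libraries 6, 7 and 8, 8 were higher and 3 lower, with a median of 0.39, where 21.6% of all tested genes were higher and 20.3% lower. With the endothelial level as a covariate 4 were higher and 4 lower, with a median of -0.03, where 17.6% of all tested genes were higher and 14.6% lower. Apart from Notch3, the largest difference was that of Ednra, the endothelin receptor of contractile mural cells (1.78, adjusted p = 2.57e-04). Acvrl1, an endothelial receptor of the TGF-β family, was the lower one (-0.45, adjusted p = 1.64e-04). Pdgfb, the ligand of the receptor encoded by Pdgfrb, was higher by 1.45 (adjusted p = 5.09e-04), at 6.55 to 32.5 CPM against 5.31 to 8.09 CPM, and is named here in addition to the rule because it pairs with Pdgfrb.

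**Figure D4:**
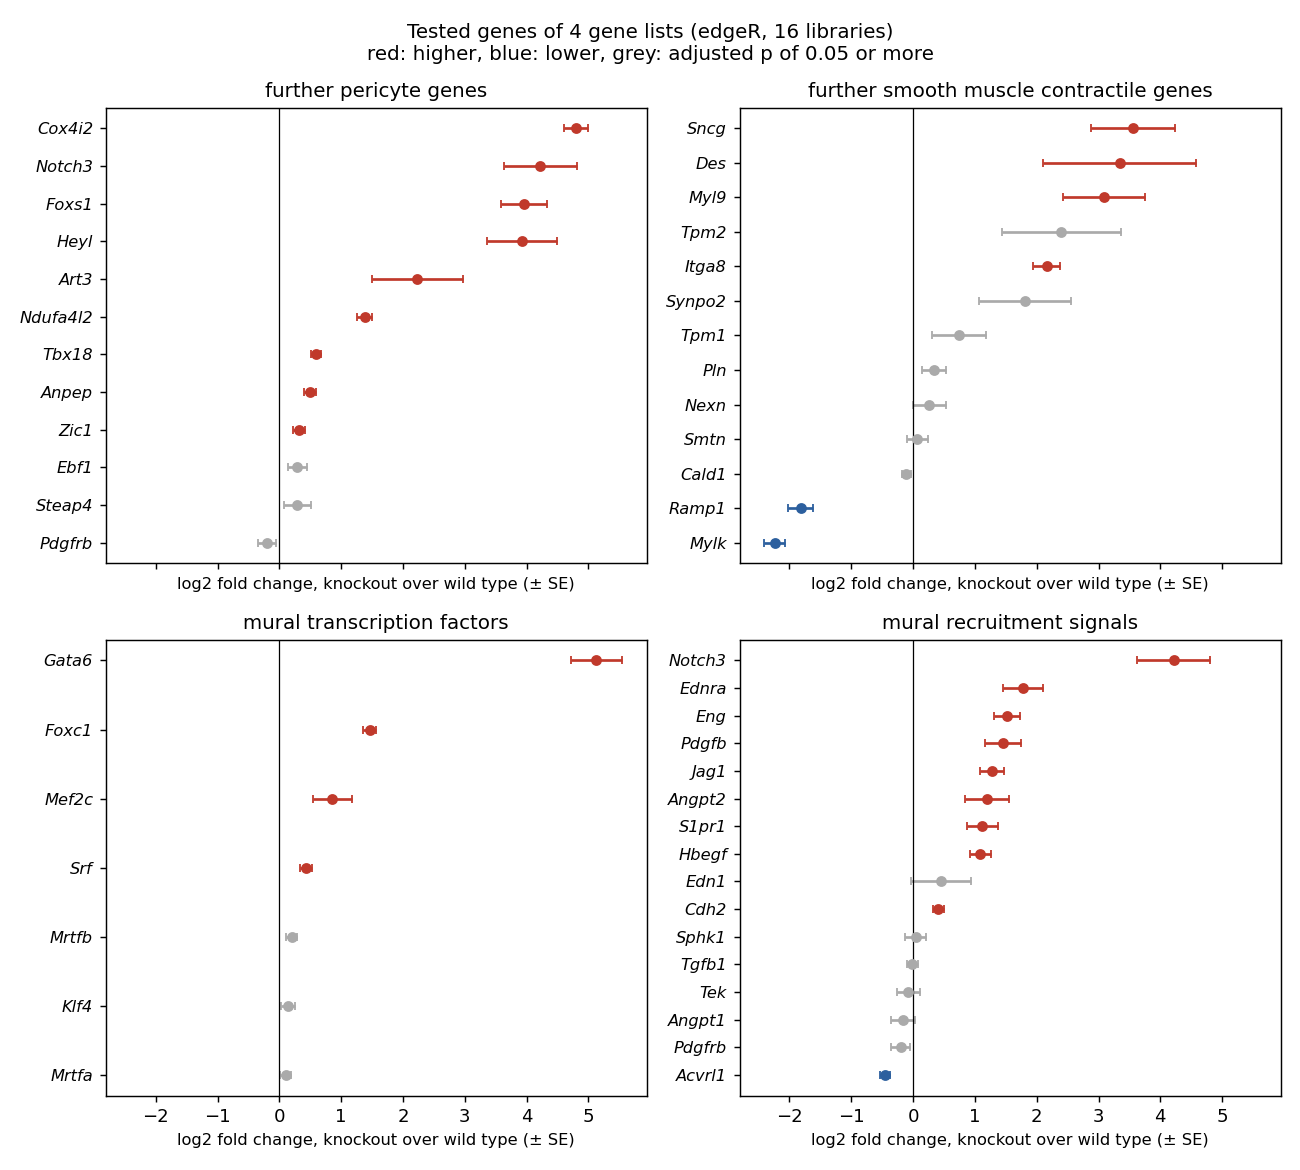
Log2 fold change of knockout over wild type with its standard error (x axis) for the tested genes of 4 lists, with red for higher, blue for lower and grey for genes that did not pass. Further pericyte genes lie at or above 0 apart from Pdgfrb at -0.20, while the contractile list runs from Mylk at -2.24 to Sncg at 3.56.

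Relatives of the markers in the same gene families were read too. Of 10 R4 genes of the RGS family, 7 were tested and 3 were higher, where 25.6% of all tested genes were. Rgs4, a close relative of Rgs5, was at 14 to 35.5 CPM in the knockout and at no more than 3 counts per library in the wild type (fitted log2 fold change 7.99, adjusted p = 1.56e-12, dependent on the prior count). Unlike Rgs5, its highest level was in knockout library 5 and not in libraries 6, 7 and 8. Rgs2 and Rgs18 did not pass (adjusted p = 0.794 and 1). Among 6 actin genes 4 were tested. The cytoplasmic Actb and Actg1 were higher, by 0.44 and 0.31 (adjusted p = 0.00559 and 0.0436), and Acta1 of skeletal muscle was at 2.34 (adjusted p = 0.154). Of 5 tested calponin and transgelin genes, Tagln and Tagln2 were higher (2.74 and 0.72, adjusted p = 3.13e-04 and 4.05e-06). Cnn2 and Tagln3 were lower (-1.02 and -2.08, adjusted p = 0.00631 and 1.11e-06). Among myosin heavy chains Myh9, a non-muscle form, was higher by 0.87 (adjusted p = 1.09e-07) and Myh10, another non-muscle form, was lower (-0.37, adjusted p = 0.0101).

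The endothelial markers, taken as a sum, were also higher in the knockout. Their summed level was 91.9 to 819.6 CPM in the knockout (15 genes, median 266) and 53.3 to 78.7 CPM in the wild type (median 65.9), with no overlap. The difference had an exact permutation p of 1.55e-04, the smallest possible with 8 against 8 libraries (adjusted over 9 marker lists, 3.50e-04). Of 12 tested endothelial genes 10 were higher, where 25.6% of all tested genes were. Tek (-0.08, edgeR adjusted p = 0.738) and Esam (0.96, adjusted p = 0.0953) did not pass. Tie1 and Cldn5 were at no more than 3 counts in every wild type library and not tested. Skeletal muscle markers summed to 433 to 25938 CPM against 104 to 11337 CPM (exact permutation p = 0.0566, adjusted 0.0727), and 1 of 16 was higher, where 25.6% of all tested genes were. The myofibroblast list was higher as well (4239 to 7637 against 2018 to 2921 CPM), as was the erythroid list (77.8 to 562 against 15.1 to 50.7 CPM), each with an exact permutation p of 1.55e-04 (adjusted 3.50e-04). Adipocyte markers were higher (1.36 to 60.5 against 0.676 to 2.29 CPM, exact permutation p = 7.77e-04, adjusted 0.00117). Of these 7 genes 5 were not tested, and Fabp4 (mean 14.6 CPM) was the largest part of the knockout sum. Tenocyte markers, those of the main cell type of tendon, were lower (82698 to 184163 against 138261 to 388332 CPM, exact permutation p = 6.22e-04, adjusted 0.00112), and 8 of 10 passed as lower, where 22.7% of all tested genes were. Most of that sum was Col1a1 (mean 79643 against 153493 CPM) and Col1a2 (39821 against 107971 CPM). The keratinocyte list was lower with no overlap (20.9 to 26.1 against 27.2 to 54.3 CPM, exact permutation p = 1.55e-04, adjusted 3.50e-04). Its largest part was Dsp (mean 12 against 24.2 CPM), while Krt1, Krt5, Krt14 and Krt15 held no more than 3 counts in any library. The difference is thus no measure of keratinocytes. Macrophage and Schwann cell markers did not pass (adjusted exact permutation p = 0.722 and 0.0825). The part of these cell types in the marker differences was not tested beyond the covariate fits for endothelial and muscle levels.

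Within the knockout, libraries 6, 7 and 8 lay apart in both measures, with 530.1 to 819.6 CPM of endothelial and 17937 to 25938 CPM of muscle markers, against 91.9 to 274 and 433 to 4118 CPM in the other 5. Because the libraries fall into separate clusters, no correlation within the knockout is given. In order of endothelial level the knockout libraries were 2, 3, 5, 1, 4, 6, 8 and 7. Mcam followed exactly that order, at 3.83, 7.6, 10, 26.5, 27.6, 45.6, 84.2 and 92.2 CPM, and so did Myh11, at 1.02, 2.48, 3.66, 9.07, 16.2, 35.5, 37.6 and 44.1 CPM. Mcam and Myh11 were named here after their values were seen. Rgs5 left the order at libraries 6 and 8 (595 and 544 CPM), as did Kcnj8 (8.67 and 5.77 CPM). Cspg4 did not follow it, with its highest level in library 1 (239 CPM) and its lowest in library 6 (144 CPM). Libraries 6, 8 and 7 were also the highest in muscle level, in the same order. Among the 5 libraries with less muscle RNA, Acta2 was lowest in library 5 (22 CPM) and highest in library 1 (39.7 CPM), and Cnn1 likewise (0.247 and 1.7 CPM). Those were also the lowest and highest of the 5 in muscle level. The order did not hold between them: library 3, next to library 1 in muscle level (1315 CPM), was second lowest in Acta2 (25.5 CPM) and Cnn1 (0.342 CPM). Libraries 4 and 1 had the highest endothelial levels of the 5, at 274 and 257 CPM. The part of either level was not tested within these 5 libraries.

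In the wild type the endothelial level varied little. Rgs5 had a Pearson r of 0.77 with it in log2 CPM and a Spearman rho of 0.83 (exact permutation p = 0.0162 and 0.0154, adjusted over 34 relations 0.0306 and 0.0436), and r was 0.47 without the 2 libraries farthest from the median, on which it rests. The 34 relations include those within the knockout, which are not given, and the adjusted values depend on them. For Abcc9, Mcam and Acta2 r was 0.72, 0.57 and 0.48. For Myh11, Tagln, Cspg4 and Cnn1 it was -0.07, -0.15, -0.38 and -0.72. The adjusted exact permutation p of r was 0.0625 or more for each of these, while the rho of Abcc9 was 0.83 (adjusted 0.0436).

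In the wild type, the muscle level spread from 104 to 11337 CPM. Rgs5 had an r of 0.90 with it and a rho of 0.69 (exact permutation p = 0.00313 and 0.0694, adjusted 0.00966 and 0.118). Abcc9 had an r of 0.95 and a rho of 0.76 (exact permutation p = 0.00114 and 0.0368, adjusted 0.00431 and 0.0833). Without the 2 libraries farthest from the median, r was 0.73 for Rgs5 and 0.87 for Abcc9. Mcam had an r of 0.81 and a rho of 0.64 (exact permutation p = 0.0101 and 0.0962, adjusted 0.023 and 0.156), and r was 0.43 without those 2 libraries, on which it rests. For Myh11 and Tagln r was 0.45 and 0.51 and rho 0.62 and 0.60 (exact permutation p of r = 0.275 and 0.193, adjusted 0.359 and 0.273). Endothelial and muscle levels themselves had an r of 0.67 and a rho of 0.55 (exact permutation p of r = 0.0605).

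**Figure D5:**
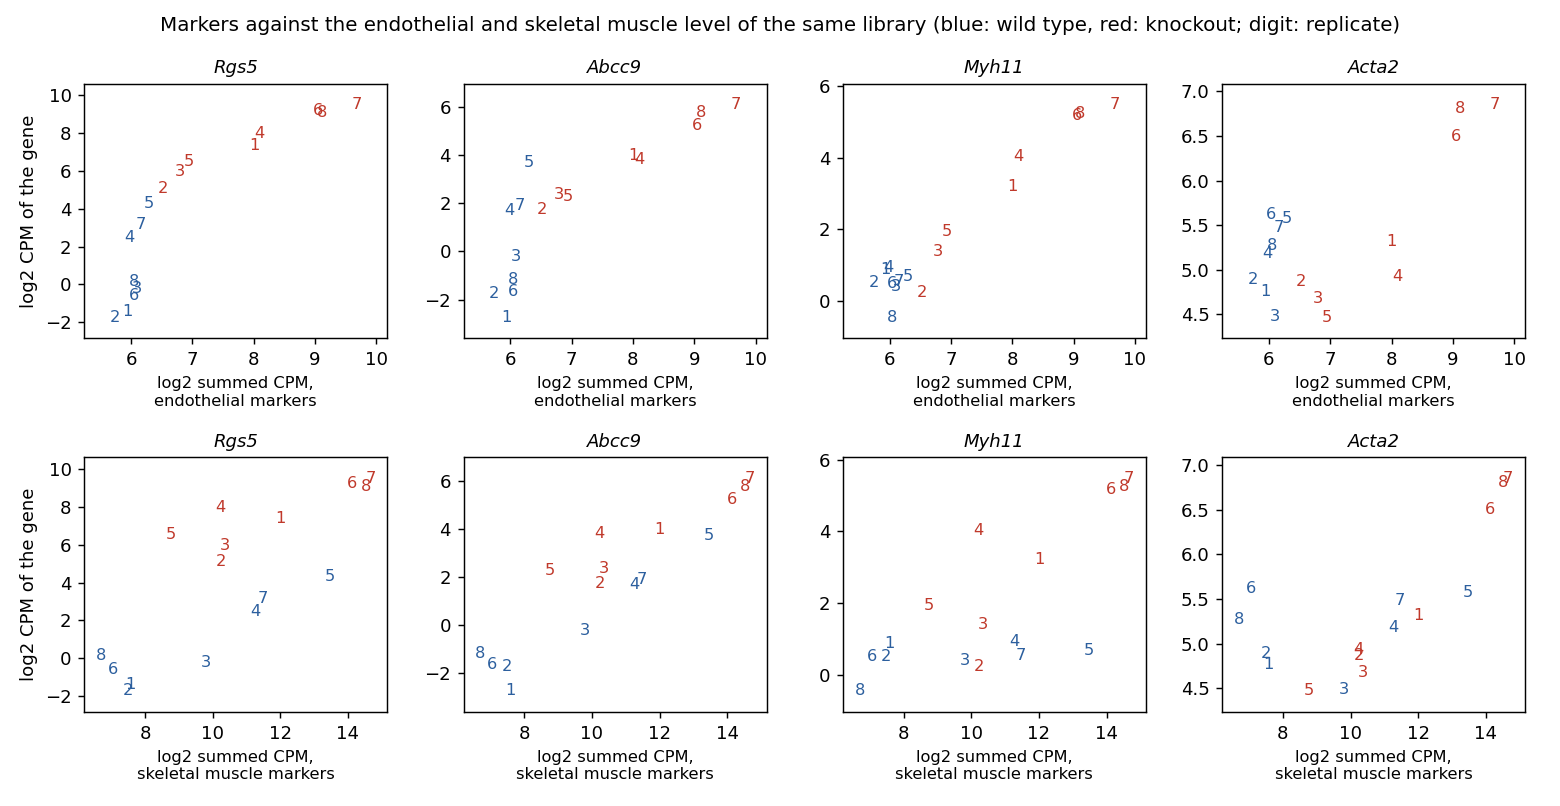
Log2 CPM of Rgs5, Abcc9, Myh11 and Acta2 against the log2 summed CPM of endothelial markers (top) and skeletal muscle markers (bottom), with 1 digit per library (its replicate number; blue wild type, red knockout). Knockout library 4 and wild type library 5 show the contrast: 1197 against 11337 CPM of muscle markers, with Rgs5 at 248 and 19.6 CPM.

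Libraries of the 2 genotypes can be set side by side by muscle level. Knockout libraries 2, 3, 4 and 5 held 433 to 1315 CPM of muscle markers, less than the 2459 to 11337 CPM of wild type libraries 4, 5 and 7. These libraries were picked after their muscle levels were seen, which left out knockout library 1 at 4118 CPM. The picked libraries also differed in endothelial level, at 91.9 to 274 CPM in the knockout and 63 to 78.7 CPM in the wild type. The values below are descriptions. Rgs5 was at 34.2 to 248 CPM in those knockout libraries and at 5.37 to 19.6 CPM in those wild type libraries. Mcam was at 3.83 to 27.6 CPM against 0.837 to 1.92 CPM. Tagln was at 8.08 to 16.2 CPM against 4.58 to 5.86 CPM, also without overlap. For Abcc9 the ranges overlapped, at 3.15 to 13.7 and 3.07 to 13 CPM, as they did for Myh11, at 1.02 to 16.2 and 1.29 to 1.74 CPM. Acta2 lay the other way without overlap, at 22 to 30.4 CPM in those knockout libraries and 36.1 to 47.4 CPM in those wild type libraries. With the muscle level as a covariate, Rgs5 differed by 5.06 (adjusted p = 3.73e-07), Myh11 by 2.38 (adjusted p = 0.00478) and Tagln by 1.56 (adjusted p = 0.00259). Acta2 was then at -0.17 (adjusted p = 0.733).

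With the endothelial level as a covariate, which did not overlap between the genotypes, 2 of the 7 tested markers were called higher, where 17.6% of all tested genes were: Rgs5 by 2.72 (adjusted p = 0.0225) and Mcam by 2.30 (adjusted p = 1.47e-05). Abcc9 was at -0.42 (adjusted p = 0.783), Myh11 at -0.11 (adjusted p = 0.854) and Tagln at 0.19 (adjusted p = 0.598). Cspg4 lost its call too, at -0.19 (adjusted p = 0.44). Acta2 was the 1 marker called lower, at -1.18 (adjusted p = 0.00389), where 14.6% of all tested genes were lower. The endothelial level and the genotype are confounded, so their parts in these values cannot be told apart.

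Likeness to Rgs5 and Myh11 was measured as Pearson r of log2 CPM over 16 libraries after subtraction of each genotype's mean. It was measured among 13416 genes with a mean log2 CPM of at least 1. The subtraction does not remove the separate cluster of knockout libraries with the most muscle and endothelial RNA. How far the r values rest on that cluster was not tested, so they are descriptions. The 5 genes most like Rgs5 were Abcc9 (0.971), Postn (0.94), Tmem182 (0.929), Adgrl4 (0.927) and Hrc (0.925). The 5 most like Myh11 were Mmrn2 (0.974), Notch3 (0.963), Esam (0.962), Gm49337 (0.94) and Sparcl1 (0.934). Rgs5 and Myh11 had an r of 0.604 with each other, and Mcam was closer to Myh11 (0.912) than to Rgs5 (0.792). Genes outside the rule, chosen after their values were seen, were Acta1 and Des of skeletal muscle and the endothelial Pecam1. Rgs5 had an r of 0.869 with Acta1, 0.862 with Des and 0.739 with Pecam1, while Myh11 had 0.534, 0.523 and 0.918.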

How the data were processed

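Bulk RNA-seq was available for 16 libraries, 8 per genotype. Each deposited file holds whole-number counts per gene in a column that, per the file headers, gives matched counts, and the counts are raw since they differ in total between libraries. The submitters' processing notes name kallisto, featureCounts and GRCm39, without saying which made the counts. Versions, annotation and strand setting are not given in the sources used here.

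Members and gene lists were chosen with earlier results of these data known. The genotype test was edgeR's quasi-likelihood test (edgeR 4.0.16, R 4.3.3; robust, TMM, default expression filter, genotype the only term, two-sided), with Benjamini-Hochberg adjustment over 14803 tested of 25719 listed genes. All 9 markers are named, and from each list up to 4 tested genes, those with the 2 largest and the 2 smallest log2 fold changes, with list genes at the floor; others are said to be added. Log2 CPM used a prior count of 2 and the floor was 3 counts. Floors cover counting error only. No replicates are stated to be separate animals, so p-values measure the spread between libraries. No 2 libraries were repeats. Symbols, exon lengths and chromosomes came from GENCODE M21 on GRCm38 (25614 of 25719 identifiers matched) and are given without start or end. Single values were compared with exact permutation tests over all 12870 assignments. Alternatives were other scalings, filters, DESeq2 1.42.0, limma 3.58.1 (voom), covariates, the replicate number as a block and each library left out. Leaving out knockout libraries 6, 7 and 8, also with the muscle covariate, was chosen after seeing the data. So were the libraries set side by side by muscle level. On counts simulated for this comparison, 14743 genes were tested. The fit called 95 of 100 genes changed 2-fold and 99 of 100 changed 4-fold, and 6 of its 200 calls were unchanged genes. Recovery at a spread between libraries as wide as that of Rgs5 (SE 1.01), Abcc9 (SE 0.933) or Myh11 (SE 0.737) was not tested.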

Additional observations from a re-analysis of the deposited data

Results flagged for a closer look

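A total of 3 wild type values stood apart from the other 7 libraries of their group by Dixon's 95% criterion, among 18 checks of which chance flags about 1 in 20. Kcnj8 was highest in wild type library 5, at -0.46 log2 CPM. That value is 6 counts, and the same library held the most skeletal muscle and endothelial RNA of its group. Their part in the value was not tested. Myh11 was lowest in wild type library 8, at -0.45 log2 CPM, below the next at 0.40. Tagln was lowest in wild type library 6, at 1.42 log2 CPM, below the next at 2.07.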

How the results depend on the processing

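Rgs5 and Mcam passed the threshold in all 28 alternatives run. Genes past the threshold ran from 4775 (endothelial covariate) to 9685 (total counts, where 85.4% of calls were higher against 53% as reported and the median of all genes moved from 0.02 to 0.32). With the endothelial covariate the markers that were higher numbered 2 instead of 5. The 1 lower marker was then Acta2, and Cspg4 lost its call (-0.19). The count of lower markers, 1 with Cspg4, became 0 with total counts (Cspg4 at 0.03), with the muscle covariate, without knockout libraries 6, 7 and 8, and with both, and ranged from 0 to 1 when single libraries were left out. Reversed values were Abcc9 -0.42, Myh11 -0.11, Acta2 -1.18 and the smooth muscle median -0.11 (endothelial covariate), and Acta2 -0.17 (muscle covariate), -0.33 (without knockout libraries 6, 7 and 8) and -0.40 (those left out with the muscle covariate). The pericyte median was 3.14 with the muscle covariate, 1.06 with the endothelial covariate and 3.00 without libraries 6, 7 and 8, and the smooth muscle median 1.36 without them and with the muscle covariate. The causes were not tested. With the replicate number as a block, 7010 genes passed and 5 markers were higher, and no member's call changed. Same-numbered libraries correlated from -0.397 to 0.394 in their deviations, and only library 2 correlated best with its own number, so no pairing by number was seen. The check cannot exclude a pairing, since muscle and endothelial levels also set libraries apart. Depth limits Kcnj8 and Cnn1, which were tested only without the filter or with a mean count of at least 10.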
